A study of Mus musculus with 216 samples.

Results

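The genes for 5 histones of the testis and the oocyte are described here at their H3K9me3 domains in mouse embryonic stem cells. The genes were selected on the decay class of H3K9me3 domains at the testis histone loci, which were already known to carry fast domains. They are Hist1h2aa, Hist1h2ba, Hist1h1t, H1fnt and H1foo, 5 of 21938 protein-coding genes of GENCODE vM21 on chromosomes 1 to 19, X and Y. Every domain that met the gene body or the 5 kb on either side of it was taken from the authors' table of 43039 domains, which gives each domain a place and a decay class in words. The classes are fast, intermediate, slow and residual, and sort the domains by the rate at which H3K9me3 decayed. The limits between classes were not given with the table. All domain edges lie on a grid of 300 bases, so distances and uncovered stretches shorter than this are below the resolution of the domains.

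The study degraded H3K9 methyltransferases in the embryonic stem cell line dTKO and followed H3K9me3 and HP1β by ChIP-seq, with matched inputs, at 0, 1, 3, 12, 24 and 48 h. All 216 sequencing runs carry the genotype Suv39h1fl/fl, Suv39h2-/- and Setdb1fl/fl, so cells at 0 h lacked Suv39h2 too. They also share the label of auxin (100 µg/ml) with dTAG13 (0.5 µM) as degrader compounds. The labels name 1 line and do not say whether it is a clone, and neither the loss of the enzymes nor markers of the cell type could be checked in the table. The domain table has 0 columns of sample values, so no value below has an error between cultures, the depth behind a class is unknown, and no test was run on the genes. Because the genes were chosen for their classes, the classes below are a description.

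Histones package DNA, and the germline uses its own versions of them. Hist1h2aa and Hist1h2ba encode TH2A and TH2B, an H2A and an H2B that replace much of the somatic H2A and H2B in spermatocytes and are also stored in the egg. Hist1h1t encodes H1t, the linker histone of meiotic spermatocytes, H1fnt encodes the linker histone of elongating spermatids, and H1foo encodes the linker histone of the oocyte. Most other Hist1 genes encode the histones made in bulk during DNA replication in dividing cells. H3K9me3 is a histone mark of silent chromatin that is written by Setdb1 and the Suv39h enzymes and bound by HP1 proteins. Embryonic stem cells keep many germline genes silent.

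The sequences before the gene starts are shown because a fast domain covered all of the 250 bases at 3 genes and none of them at the other 2. These 250 bases upstream of each RefSeq start (GRCm38.p6) are written 5′ to 3′ on the gene's strand. Capitals mark 4 motifs. They are the CCAAT box (read as ATTGG on the other strand), the TATA box TATAAA (other strand TTTATA), the E-box CACGTG, which is its own reverse, and the octamer ATTTGCAT (other strand ATGCAAAT) known from H2B promoters. The octamer was added after the data were seen. The first sequence lies between Hist1h2ba and Hist1h2aa and serves both genes, the second belongs to the other gene in a fast domain, and the last pair to the genes without a domain.
Hist1h2aa (chr13:23934187-23934436, plus strand): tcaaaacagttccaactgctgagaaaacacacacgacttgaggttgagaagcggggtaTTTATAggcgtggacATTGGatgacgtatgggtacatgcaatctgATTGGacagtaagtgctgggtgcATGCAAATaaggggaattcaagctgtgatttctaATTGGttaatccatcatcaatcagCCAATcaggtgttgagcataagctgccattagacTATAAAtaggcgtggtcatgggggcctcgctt
H1fnt (chr15:98257308-98257557, minus strand): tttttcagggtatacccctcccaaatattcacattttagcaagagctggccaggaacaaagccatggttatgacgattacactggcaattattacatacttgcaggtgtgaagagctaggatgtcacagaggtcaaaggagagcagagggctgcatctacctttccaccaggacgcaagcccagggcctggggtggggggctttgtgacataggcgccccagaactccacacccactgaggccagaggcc
Hist1h1t (chr13:23695561-23695810, plus strand): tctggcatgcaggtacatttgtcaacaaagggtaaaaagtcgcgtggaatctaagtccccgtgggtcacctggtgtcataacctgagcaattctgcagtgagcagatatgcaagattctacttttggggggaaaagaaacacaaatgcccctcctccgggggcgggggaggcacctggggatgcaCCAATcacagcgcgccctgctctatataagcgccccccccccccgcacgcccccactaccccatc
H1foo (chr6:115944681-115944930, plus strand): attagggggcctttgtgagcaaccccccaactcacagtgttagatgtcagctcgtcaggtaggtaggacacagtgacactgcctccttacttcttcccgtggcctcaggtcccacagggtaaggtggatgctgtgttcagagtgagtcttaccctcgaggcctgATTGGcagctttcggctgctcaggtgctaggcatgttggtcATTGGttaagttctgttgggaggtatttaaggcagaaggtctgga

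Of the 5 genes, 3 lay in fast domains and the other 2 had no domain in their windows. The TH2A and TH2B genes sat together in 1 fast domain and the spermatid gene H1fnt in another, so 3 genes stood for 2 domains. No intermediate, slow or residual domain met any of the 5 windows. Among all protein-coding genes, the same window met a fast domain at 423 of 21938, or 1.93%, and any domain at 7226, or 32.9%. Since the genes were picked for this class, nothing is read from that difference.

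Hist1h2ba and Hist1h2aa are divergent neighbours on chromosome 13. Hist1h2ba (23933773 to 23934156, minus strand) and Hist1h2aa (23934462 to 23934851, plus strand) are 305 bases apart, head to head, in GENCODE vM21 on mm10. Their shared fast domain ran from 23932801 to 23935800, a width of 3.0 kb. It held all of the 384 bases of Hist1h2ba, all of the 390 bases of Hist1h2aa, and the whole stretch between them. The domain was nearly centred on the 2 gene starts: its middle lay at -161.5 bases from the start of Hist1h2aa and at -144.5 bases from that of Hist1h2ba, where minus means upstream. It covered 28.9% of each gene's window. Both genes are annotated with 1 transcript and no intron. The domain also covered Gm44344, a miRNA gene annotated inside Hist1h2aa on the opposite strand. The next domain lay outside the window, 12.65 kb past the end of Hist1h2aa. It was fast too and 2.4 kb wide (23947501 to 23949900). On the other side, the closest domain was 207.9 kb away and intermediate.

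H1fnt was covered in a lopsided way. The gene (chromosome 15, 98255986 to 98257293, minus strand) has 1 transcript of 1308 bases without introns. Its fast domain ran from 98256001 to 98261700, a width of 5.7 kb, and held all 1194 coding bases and 99 of 114 untranslated bases, 98.9% of the body. From the gene start it reached 4.407 kb upstream but 1.292 kb downstream, where the gene ends. It covered 50.4% of the window. An intermediate domain of 1.8 kb (98263501 to 98265300) lay 1.8 kb beyond it and 6.208 kb upstream of the gene, just outside the 5 kb limit. No other gene overlapped the fast domain, and the nearest coding gene, the odorant receptor gene Olfr286, was 21.536 kb away.

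Hist1h1t and H1foo had no domain nearby. Hist1h1t (chromosome 13, 23695814 to 23696725, plus strand) lies inside the Hist1 cluster, 0.91 kb from the histone H4 gene Hist1h4c. Its nearest domain was intermediate, 3.0 kb wide and 25.176 kb away (23721901 to 23724900). H1foo (chromosome 6, 115944938 to 115950236, plus strand) lies 4.575 kb from Plxnd1, the gene of a semaphorin receptor. Its nearest domain was intermediate, 0.9 kb wide and 56.465 kb away (116006701 to 116007600). Among protein-coding genes, 59.3% had a domain nearer than Hist1h1t and 76.5% nearer than H1foo, with a median distance of 15.9 kb. Most of these 2 windows could be read uniquely: 97.1% of 31-base words were found once in the genome at Hist1h1t and 98.0% at H1foo. Repeat sequence, counted as soft-masked bases, made up 15.1% and 16.2% of them.

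**Figure D1:**
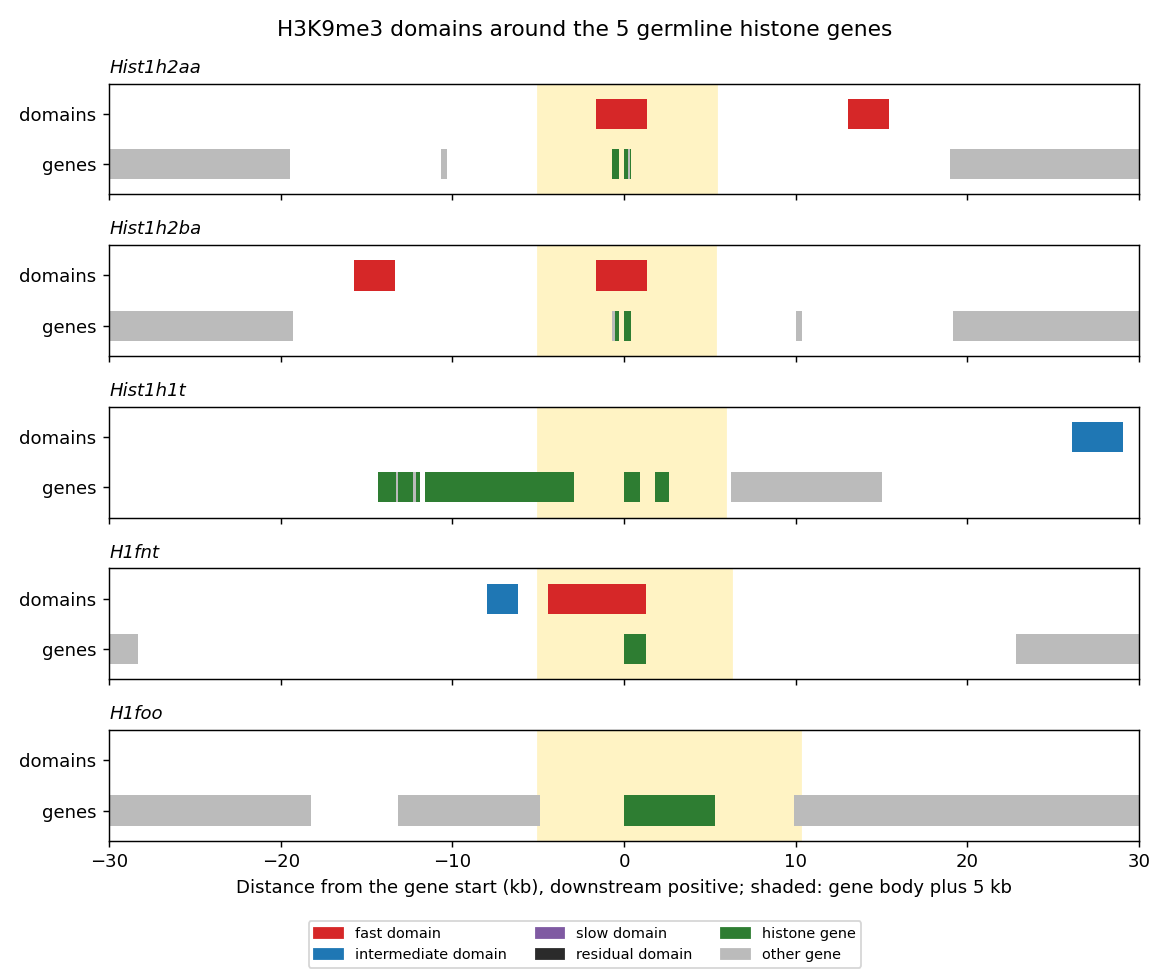
Domains and genes around each of the 5 genes, drawn on the strand of the gene, with distance from the gene start in kb on the x axis and the gene body plus 5 kb shaded. Red bars (fast) cover the starts of Hist1h2aa, Hist1h2ba and H1fnt, the intermediate domain at H1fnt lies outside the shading, and the windows of Hist1h1t and H1foo are empty.

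Complete cover by a fast domain was rare in the genome. At least 95% of the body lay in fast domains for 4 of 21938 protein-coding genes, or 0.0182%. These were Hist1h2aa, Hist1h2ba, H1fnt and Svs5, a seminal vesicle protein gene, which was named after its value was seen (96.3% of 1657 bases on chromosome 2). The 3 histone genes were chosen with their fast domains in view, so nothing is read from their place here. All 4 bodies are short, from 384 to 1657 bases, and genes of like length were not compared. With limits of 80% and 50% the counts were 9 genes (0.041%) and 14 genes (0.0638%). A coding gene start lay in a fast domain for 25 genes, or 0.114%. Those starts fell in 22 of the 1498 fast domains, 1.47% of them. The domain of Hist1h2aa and Hist1h2ba was 1 of 3 fast domains with 2 or more coding starts, and the other two, on X, held 8030474K03Rik with Gm4779 and 1700011M02Rik with Dmrtc1a. Fast domains made up 3.49% of the 42890 domains on these chromosomes. In width, the 3.0 kb domain was close to the median of fast domains (2.7 kb, quartiles 1.8 and 3.9 kb), while 90.1% of fast domains were narrower than the 5.7 kb domain of H1fnt.

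The other Hist1 genes were mostly outside H3K9me3 domains, on the same chromosome as 3 of the germline genes. Of 53 other Hist1 genes, 49 had no domain within 5 kb, and 0 had any part of the body in a domain. A domain of any class met 4 windows, or 7.55%, an intermediate domain 4 (7.55%) and a fast domain 1 (1.89%), against 32.9%, 24.7% and 1.93% of all protein-coding genes. Most Hist1 genes are short, and among protein-coding genes with a body of at most 5 kb the shares were 21.0% for any domain and 1.01% for a fast one. No window of these genes met a slow or a residual domain, against 9.65% and 4.28% of all protein-coding genes. Neighbouring Hist1 genes share domains, so these counts are not independent: joined where windows meet, the 53 genes form 11 loci, of which 2 had a domain. The 53 are 51 protein-coding genes and 2 pseudogenes, and among the 51 there were 3 genes with a domain and 0 with a fast one.

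The 3 coding genes near a domain shared a single intermediate one. Hist1h4m, an H4 gene, had 4747 bases of its window in that 7.8 kb domain (21812401 to 21820200) and lay 0.254 kb from its edge. Hist1h2ao, an H2A gene, had 3544 bases in it at 1.457 kb, and the H2B gene Hist1h2bq 2797 bases at 2.204 kb. The share of 31-base words found once in the genome was 8.33% in the body of Hist1h4m and 0.0% in those of Hist1h2ao and Hist1h2bq. Whether reads at this domain could belong to another copy was not tested. The only fast domain near another Hist1 gene was at Hist1h2al, a processed pseudogene of an H2A gene that lies far from the cluster (51202727 to 51203065). Its body was not covered: a fast domain of 2.4 kb (51200101 to 51202500) ended 0.227 kb from it, and an intermediate one of 2.1 kb (51204601 to 51206700) lay on its other side. The gaps of 0.227 kb here and of 0.254 kb at Hist1h4m are shorter than the 300-base step of the domain edges.

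The germline core histone genes stood apart from the cluster in position as well. The closest other Hist1 gene to Hist1h2ba was the linker histone gene Hist1h1a, at 169.4 kb, whereas Hist1h1t had Hist1h4c at 0.91 kb. The median distance from the other Hist1 genes to a domain was 35.8 kb (quartiles 15.0 and 64.9 kb, n = 53), and 20 of the 53 were nearer to a domain than Hist1h1t was. For 30 of the 53 the nearest domain was intermediate, for 22 slow and for 1 fast. The widest domain between the genes was a slow one of 14.4 kb (23636101 to 23650500). Split at gaps over 500 kb, the Hist1 genes formed a block of 24 (21715763 to 22043676), a block of 31 that holds the 3 germline genes (23531050 to 23934851), and Hist1h2al alone. Domains covered 4.35% of the block of 24 and 4.93% of the block of 31, against 7.01% of chromosome 13. Those blocks held 7 domains, 5 intermediate, 1 slow and 1 fast. The fast one was that of Hist1h2ba and Hist1h2aa, and it was the only one of the 7 that overlapped an annotated gene of any kind.

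**Figure D2:**
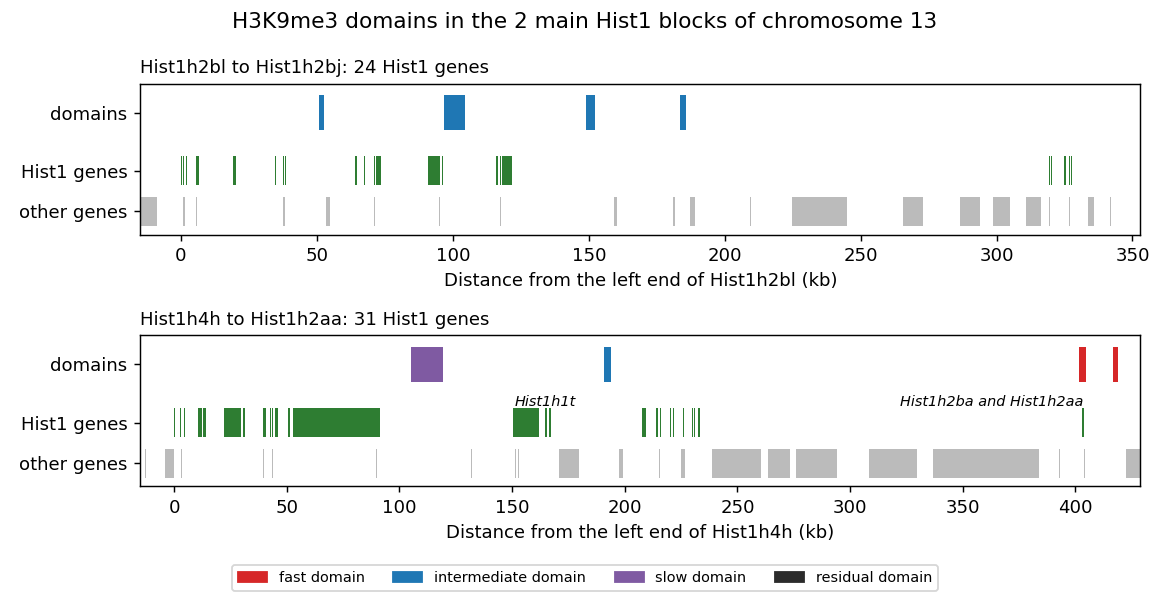
Domains (top row), Hist1 genes (middle) and other genes (bottom) along the blocks of 24 and 31 Hist1 genes, with distance in kb from the left end of the first gene of each block. Domains of the intermediate and slow classes lie between the genes, Hist1h1t sits among its neighbours, and the fast domain covers Hist1h2ba and Hist1h2aa at the right, with the next fast domain beyond it.

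Other histone genes and packaging proteins of the germline had 0 fast domains within 5 kb, which in 23 and 6 genes is near the share of 1.93% among all protein-coding genes. With wider flanks, H2afb2 and H2al1n, H2A variant genes on X named after their values were seen, had a fast domain at 9.176 kb and 12.84 kb. Of 23 other germline histone genes, mainly the short H2A variants of spermatids on X, 3 had a domain: 2 were slow and 1 intermediate. The share with a domain was 32.9% among all protein-coding genes and 21.0% among those with a body of at most 5 kb. The windows of H2al1a to H2al1j overlap in a row, so the 23 genes are not independent. H2al1k lay wholly inside a slow domain of 7.8 kb (X, 9344101 to 9351900), H2al2c on Y was 3.367 kb from a slow one, and H2al1o on X 1.601 kb from an intermediate one. The H2al genes form a family of similar genes, and whether reads there could belong to another copy was not tested. The 6 genes for protamines, transition proteins and Npm2, a chromatin protein of the egg, had 0 domains. Hils1, a spermatid linker histone gene on chromosome 11, had none either.

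Somatic histone genes outside Hist1 met only intermediate domains. Of 14 genes in the Hist2, Hist3 and Hist4 groups, 3 had one, namely Hist4h4, with 40.1% of its body inside it, Hist3h2ba and Hist3h2a. Among 11 replacement variants, which are made outside replication, 1 had one: H2afv, at a distance of 3.158 kb. These are 21.4% and 9.09% of the lists, against 24.7% of all protein-coding genes with an intermediate domain.

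**Figure D3:**
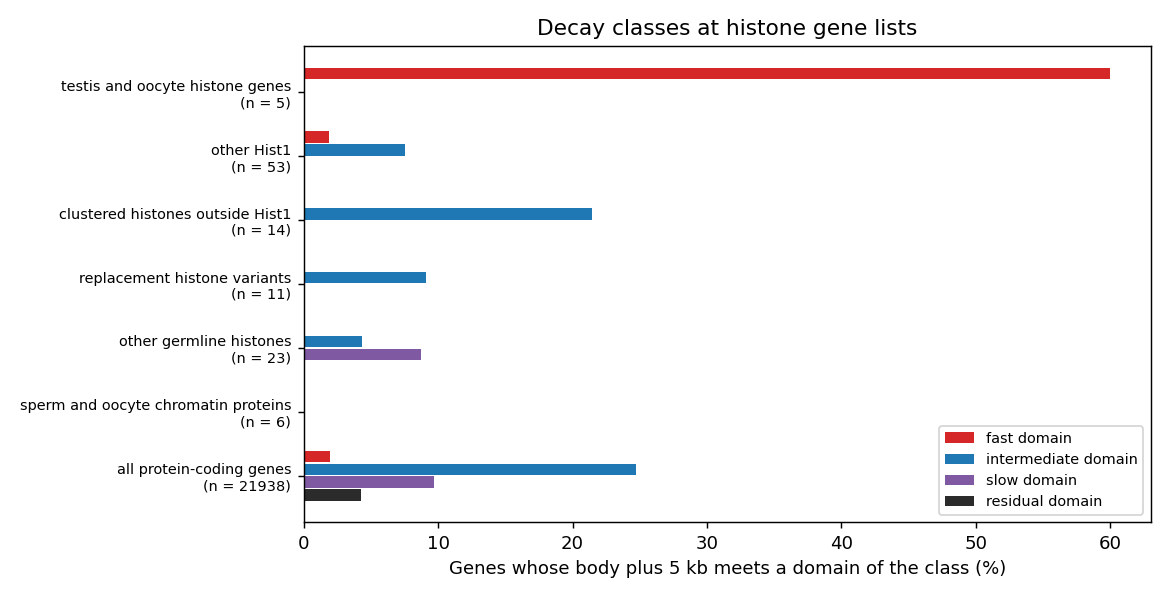
Share of genes (x axis, %) whose body plus 5 kb met a domain of each decay class, by list, with the number of genes in brackets. The tallest fast share, 3 of 5, belongs to the genes chosen for that class and rests on 2 domains, while the other histone lists show 0 to 1.89% fast.

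Sequence composition, which was not used to choose the genes, differed between the 2 fast domains. The domain of Hist1h2aa and Hist1h2ba was rich in CpG, the dinucleotide that mammals methylate. It held 92 CpGs, an observed over expected ratio of 0.566, against a median of 0.228 in fast domains (quartiles 0.159 and 0.319). Of all fast domains, 99.0% had a lower ratio, and of the 22 with a coding gene start 17 did. The bodies of Hist1h2aa and Hist1h2ba had ratios of 0.694 and 0.857. The bodies of the other 53 Hist1 genes, with no part in a domain, had a median of 0.903 (quartiles 0.768 and 0.953). The H1fnt domain had 77 CpGs over 5.7 kb, a ratio of 0.265, which is inside the quartiles of its class. GC content was 46.6% and 45.2%, against a median of 43.7% in fast domains and 52.2% in the 22 with a coding gene start. Both domains held less repeat sequence than the median fast domain: 14.7% of bases were soft-masked in the first and 32.5% in the second, against a median of 71.7% (quartiles 32.3 and 92.4%). On autosomes other than 8 and 11, the medians of fast domains were 44.6% for GC content and 53.7% for soft-masked bases (quartiles 25.0 and 87.5%). The H1fnt domain was inside these quartiles. Among the 22 with a coding gene start, which include both, the median was only 10.6%. Of those 22, 16 had a lower share than the first domain and 19 a lower share than the second. The 2 domains are 2 loci, and no test was made.

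**Figure D4:**
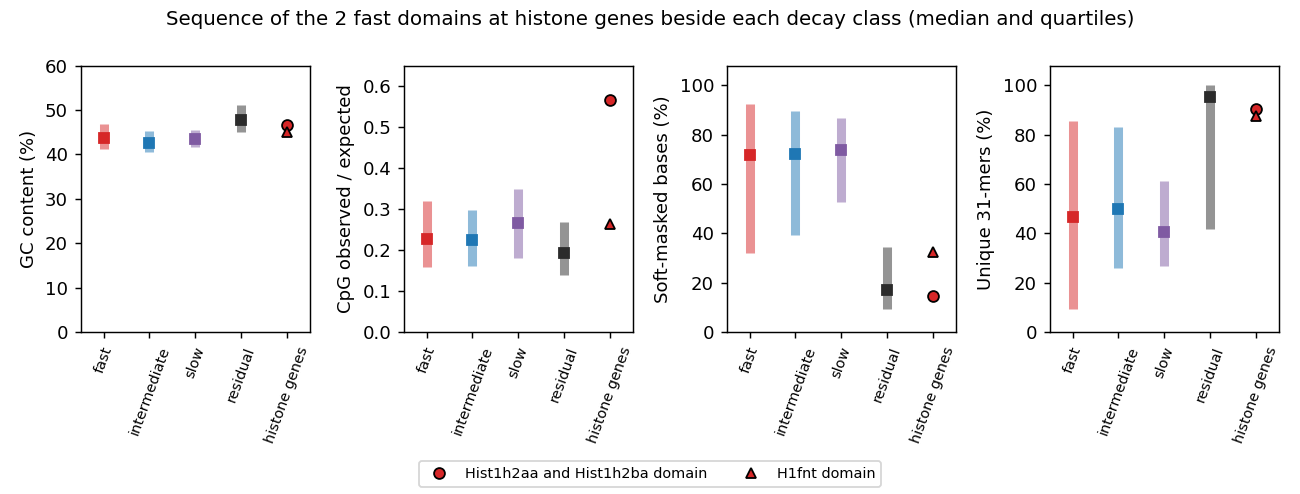
GC content, CpG ratio, soft-masked share and share of unique 31-base words. Squares and bars give the median and quartiles of each decay class, and the circle and triangle the fast domains at Hist1h2aa with Hist1h2ba and at H1fnt. The circle lies far above every class in CpG ratio (0.566), and both symbols are lower in soft-masked share than the fast median of 71.7%.

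Most of both domains could be read uniquely. The share of 31-base words found once in the genome was 90.3% in the domain of Hist1h2aa and Hist1h2ba and 87.7% in that of H1fnt, against a median of 46.7% in fast domains, where words were read every 100 bases. In the 22 fast domains with a coding gene start the median, read the same way, was 91.4%. All words in the body of H1fnt and of Hist1h1t were unique. The share was 88.3% in the body of Hist1h2aa and 55.9% in that of Hist1h2ba, so part of the TH2B gene shares short words with other copies. In the bodies of the other 53 Hist1 genes the median was 39.6% (quartiles 12.0 and 63.9%). For many of those genes a read can match several copies, and the sources used here do not say how such reads were placed.

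CpG counts peaked on the genes within both domains. In tiles of 300 bases, the richest tile, with 23 CpGs and 42.0% unique words, lay mostly in Hist1h2ba and the next, with 17 CpGs, mostly in Hist1h2aa. The outermost tiles of that domain had 0 and 1 CpG, and were 57.0 and 66.0% soft-masked. At H1fnt the richest tile, with 17 CpGs, began 93 bases into the gene. The upstream arm had at most 6 CpGs per tile beyond -207 bases from the start, and the tile from -1107 to -808 was 97.3% soft-masked.

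**Figure D5:**
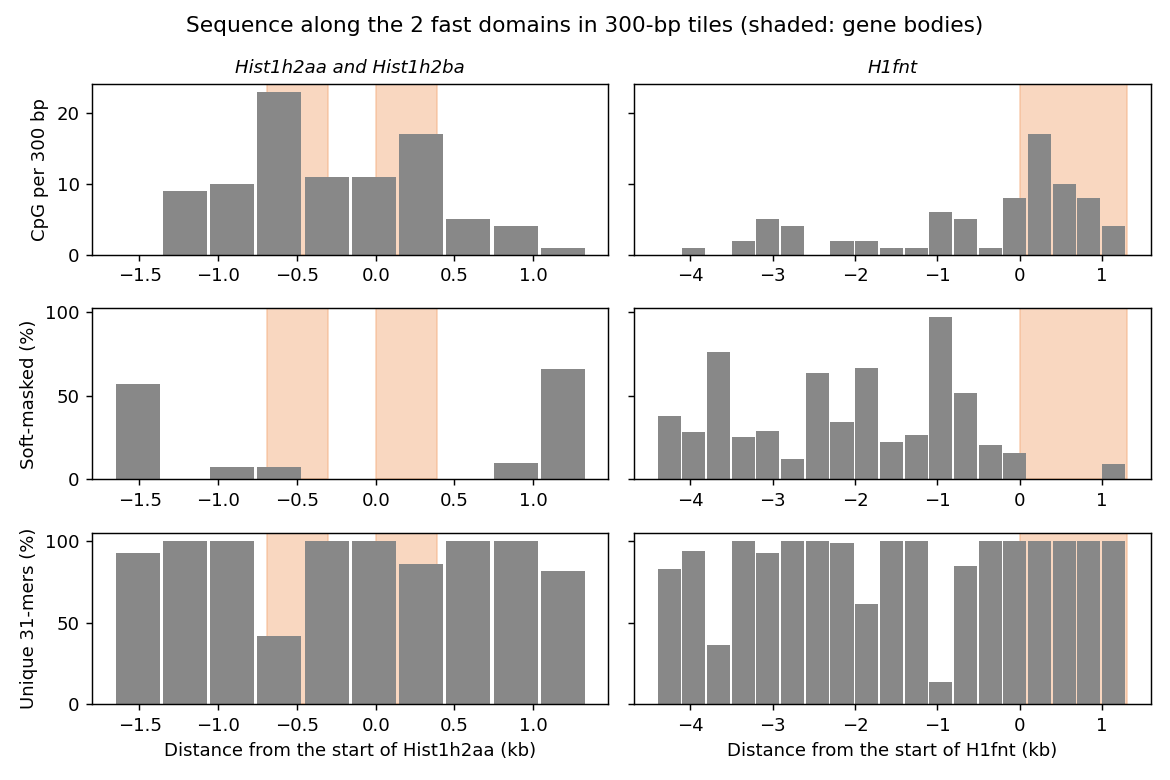
CpGs, soft-masked share and share of unique 31-base words in tiles of 300 bases along the 2 fast domains, with distance from the start of Hist1h2aa or H1fnt in kb and gene bodies shaded. CpG counts peak at 23 and 17 on Hist1h2ba and Hist1h2aa and at 17 in H1fnt, and soft-masked sequence lies mainly outside the genes.

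The promoter between the TH2A and TH2B genes held the motifs that were frequent before the other Hist1 genes. In the 250 bases before Hist1h2aa, CCAAT was found 4 times, TATAAA 2 times and the octamer ATTTGCAT 1 time, at -124 from the start. The 250 bases before Hist1h2ba, read on the other strand, overlap the same stretch and carry 4, 1 and 1. Hist1h1t had 1 CCAAT and H1foo 2, and H1fnt had 0 matches to any of the 4 motifs. CACGTG was found in 0 of the 5. Among 32851 RefSeq promoters of the same length, 33.8% held CCAAT, 12.4% TATAAA, 6.02% CACGTG and 1.6% the octamer. Among 49 promoters matched to 48 of the other 53 Hist1 genes, 41 held CCAAT (83.7%), 24 TATAAA (49.0%), 9 the octamer (18.4%) and 0 CACGTG. A match is only a run of letters and does not show binding.

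Promoter CpG content is given for the 5 genes as a description. The CpG ratio of the 250 bases was 0.501 for Hist1h2aa and 0.172 for H1fnt, both in fast domains, and 0.501 for Hist1h1t and 0.231 for H1foo, both without one. The median was 0.774 over the 49 other Hist1 promoters (quartiles 0.590 and 0.934) and 0.374 over all promoters. All 5 germline histone promoters were below the lower quartile of the other Hist1 genes, with Hist1h2ba at 0.410. The other Hist1 promoters ranged from 0.203 to 1.25, so some of them lay below that quartile too. These included promoters of H2A and H2B genes without a domain in their windows. The promoters of Hist1h2aa and Hist1h2ba are largely the same stretch and not separate cases. H1fnt and H1foo are not Hist1 genes, and their ratios were also below the median of all promoters.

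The germline genes also differ in coding sequence from the replication histones. Hist1h2aa was 84.0% identical at the median to 12 other Hist1 H2A genes, which were 98.2% identical among themselves. Hist1h2ba was 87.3% identical at the median to 14 other H2B genes, against 96.6% among those. Pairs among the 12 H2A genes were at least 95.9% identical, and pairs among the 14 H2B genes at least 86.5%. The least alike pair of those H2B genes was thus below the median of Hist1h2ba. For the linker histones the identity to the 5 other Hist1 H1 genes was lower, at a median of 63.0% for Hist1h1t, 47.4% for H1foo and 41.3% for H1fnt, against 75.3% among the 5. Their aligned coding sequences were 627, 912 and 1194 bases long in that order. Identity was taken over whole sequences and not corrected for length, so these values mix length with sequence.

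A few other genes had a similar pattern of window cover. Likeness was the smallest sum, in bases, of the differences in window cover by each class and in the distance from the gene start to the centre of the nearest domain, over 7213 protein-coding genes with a domain and outside the histone lists. Closest to Hist1h2aa and to Hist1h2ba were 1700019N19Rik on chromosome 19, with a fast domain of 3000 bases (58793401 to 58796400) at its start and a sum of 278 or 295 bases, and Gm9833 on chromosome 3, with 2700 fast bases and a sum of 602 or 585. Closest to H1fnt were Gp1bb on chromosome 16, a platelet receptor subunit gene, with 4800 fast bases and a sum of 940, and 1700011M02Rik on X, with 4800 and 1047. This likeness is in window cover and domain position alone, and cover of the gene body was not part of it.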

How the data were processed

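H3K9me3 and HP1β ChIP-seq with inputs was done in the dTKO mouse embryonic stem cell line, in 216 runs, grouped by the antibody or input and the time in their titles. The deposited table used here holds a decay class in words per domain (fast, intermediate, slow, residual) and 0 columns of sample values. Per the submitters' processing notes the authors used Bowtie2 2.3.4.1, SAMtools 1.1, deepTools and bedtools, with builds mm10, dm6, mm9 and GRCm38. The steps that called domains, scaled them by the Drosophila spike-in and set the classes are not stated there. The HP1β measurements were not analysed here.

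Coordinates are mm10 (GRCm38), printed 1-based, and were set against GENCODE vM21 and the GRCm38.p6 sequence, with 0 domains past a chromosome end. An overlap needed 1 bp and a window was the gene body plus 5 kb. The genes and lists were chosen with earlier results of these data known, so no test was run. Named genes are the 5 genes, other Hist1 genes by fast domain or most cover, up to 3 genes with a domain per histone list, and 2 genes of most similar cover per gene. CpG ratios are observed over expected, and words of 31 bases were counted on both strands of the chromosomes and unplaced sequences. Coding identity came from global alignment. Older symbols were matched to RefSeq (5 of 5 genes) for promoters. Overlap and word counting were tested on simulated data. The software was Biopython 1.88, numba 0.67.0, matplotlib 3.10.9, statsmodels 0.14.6, pandas 2.3.3, numpy 2.4.6 and Python 3.11.15.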

Additional observations from a re-analysis of the deposited data

How the results depend on the processing

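The count of 3 of 5 germline histone genes in fast domains was the same under every alternative run: the gene body alone, flanks of 10 or 25 kb, the domain midpoint or at least 50% of the domain in the window, and domains under 900 bp left out. None of these could have lowered it: both domains are wider than 900 bp, lie wholly in the windows and cover at least 98.9% of the bodies. The genes were also chosen for this class. With 10 or 25 kb, 1 gene (H1fnt) also met an intermediate domain. Among the other Hist1 genes, the count of 4 with a domain was 0 by gene body, 20 with 25 kb, and 2 by midpoint or by the 50% rule; the count of 1 with a fast domain was 0 by gene body or with coding genes alone. By gene body, the counts with a domain of any class were 1 for Hist2 to Hist4, 0 for the replacement variants and 1 for the other germline histones. With 10 kb they were 4 for the replacement variants, 6 for the other germline histones and 1 for the sperm and egg proteins. Other germline histones with a fast domain went from 0 to 1 with 10 kb and to 2 with 25 kb. With 25 kb the counts with a domain of any class were 7, 7, 14 and 2. The order is Hist2 to Hist4, replacement variants, other germline histones, and sperm and egg proteins. The replacement variants had 0 by midpoint or the 50% rule. The share of protein-coding genes with a fast domain was 1.01% among bodies of at most 5 kb, and 1.54% by gene body to 3.58% with 25 kb. With words of 51 bases, the unique share was 95.3% and 92.3% in the domains at Hist1h2aa and H1fnt. The central 900 bp of the H1fnt domain lie upstream of the gene and had a CpG ratio of 0.108. No paired analysis was possible because the table has no value per sample, and for the same reason no replicate could be left out. Depth per domain is unknown.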
